A study of Mus musculus with 6 samples.

Results

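The genes described here encode the proteasome, with the unfolding enzyme p97 (Vcp) and its adaptor NPL4 (Nploc4). They were chosen by symbol: every gene whose symbol begins with Psma, Psmb, Psmc, Psmd or Psme, other than Psmb8 and Psmb9, that held at least 100 unique molecular identifiers (UMIs, each tagging 1 captured RNA molecule) over the whole matrix, plus Vcp and Nploc4. That gave 43 genes of 32285 in the matrix, of which 13390 reached 100 UMIs. Of the 43, 31 encode constitutive subunits, 7 of them in the alpha ring and 7 in the beta ring of the 20S core, with 6 ATPases and 11 non-ATPases of the 19S regulator. A further 3 are inducible by interferon (Psmb10, Psme1 and Psme2), 3 are 19S assembly chaperones (Psmd5, Psmd9 and Psmd10), and Psme3 and Psme4 are other activators. The rule also took in Psmc3ip, a meiotic recombination factor that is not a proteasome subunit, and Psme2b, a near copy of Psme2 whose reads may be split with it. Psma8 and Psmb11, at 16 and 2 UMIs, were under the minimum.

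The proteasome degrades proteins tagged with ubiquitin. The 19S regulator recognises the tag, removes it and unfolds the substrate with a ring of ATPases. The 20S core then cuts the chain inside a barrel whose outer alpha rings form the gate and whose inner beta rings carry the active sites of Psmb5, Psmb6 and Psmb7. Interferon induces Psmb8, Psmb9 and Psmb10, which take the places of Psmb5, Psmb6 and Psmb7, and the PA28 activator made of Psme1 and Psme2. The resulting immunoproteasome supplies peptides for MHC class I. Working ahead of the proteasome, p97 pulls ubiquitinated proteins out of membranes and complexes, with NPL4 and Ufd1 as the adaptor that binds the ubiquitin chain.

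The data are droplet single-cell RNA counts, read from the 3′ end of transcripts, from 6 tumors grown under the skin of male mice from MOC-2, a line of mouse oral cavity carcinoma. The labels give 3 tumors injected with vehicle and 3 injected with the experimental agent, taken 24 hours after intratumoral injection. Copper(II) diethyldithiocarbamate, a compound whose known target is NPL4, is among the agents that the protocol lists, and the labels do not say which agents the treated tumors received. Sorted live cells of each tumor were tagged with an oligonucleotide and pooled, and the deposited matrix names no tumor for any cell. Its barcodes carry 6 suffixes, called barcode sets here, which no label ties to a tumor or to a treatment. Vehicle and treated tumors were therefore not compared, and no value below has a replicate or a test. Intervals are 95% intervals for counting error alone, and the range over barcode sets is a description.

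Of 14818 cells, 13768 had at least 500 genes and under 15% mitochondrial counts. Cells were assigned to gates by marker genes. A host gate asked for at least 3 markers of a lineage (5 for fibroblasts, with Col1a2 among them) and at most 1 Xist UMI. The carcinoma gate asked for at least 3 Xist UMIs, no Y-linked UMI, no Ptprc UMI and no host panel, since the line carries Xist and the host is male. The fibroblast panel itself required at most 1 Xist UMI, so fibroblast markers did not keep a cell out of the carcinoma gate. That gate held 8 of 8 fibroblast markers, at 3283 CPM in sum. In all, 10290 cells were gated, 7267 of them carcinoma, 1609 macrophage or monocyte, 368 fibroblast, 340 T cell, 231 NK cell, 178 osteoclast-like, 67 neutrophil, 61 mast cell or basophil, 60 pericyte or smooth muscle, 56 endothelial and 53 dendritic cells. Another 445 cells met conflicting host panels, or a host panel together with more than 1 Xist UMI, and 3024 met no gate. Median UMIs per cell ran from 1833 in the neutrophil gate to 9086 in the osteoclast-like gate among host cells, and stood at 11458 in the carcinoma gate. Levels are CPM, the UMIs of a gene per 1000000 UMIs of the pooled gate. A 3′ count takes 1 tag from each molecule, so CPM is not divided by gene length.

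In the pooled carcinoma cells the 31 constitutive genes summed to 6890 CPM, and the sums over the 6 barcode sets were 6906, 6913, 6341, 6781, 7194 and 6718 CPM. The sets thus lay within 1.13-fold of each other, with set 3 lowest. The alpha ring contributed 2223 CPM, from 152 for Psma6 and 158 for Psma1 through 255 for Psma4, 283 for Psma5, 404 for Psma3 and 407 for Psma2 to 564 CPM for Psma7. The beta ring contributed 2332 CPM and spanned Psmb7 at 119 CPM, Psmb5 at 208, Psmb2 at 305, Psmb6 at 308, Psmb4 at 324, Psmb1 at 421 and Psmb3 at 647 CPM. These 2 rings of the core held the highest counts among the members. The ATPases, which unfold the substrate, had lower counts and summed to 596 CPM, with Psmc2 at 58.6, Psmc1 at 58.9, Psmc4 at 87.5, Psmc5 at 102, Psmc3 at 124 and Psmc6 at 164 CPM. The non-ATPases summed to 1739 CPM, from Psmd13 at 84.8 and Psmd3 at 88.5 CPM to Psmd8 at 230 and Psmd7 at 268 CPM. Between those ends were the scaffolds Psmd1 and Psmd2, the ubiquitin receptor Psmd4, the deubiquitinase Psmd14, and Psmd6, Psmd11 and Psmd12. The assembly chaperones Psmd5, Psmd9 and Psmd10 were at 61.7, 52.8 and 43.8 CPM.

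Within the carcinoma gate the share of RNA that encoded the constitutive proteasome was higher in cells with more UMIs. Cells of each barcode set were ranked by UMIs and split into 10 equal bins. From the shallowest bin to the deepest, whose cells had medians of 3279.5 and 28367.5 UMIs, the constitutive sum was 4147, 4829, 5406, 5813, 6128, 6494, 6862, 7274, 7530 and 8008 CPM. Each bin was above the one before it. The deepest bin was 1.93-fold above the shallowest (1.89 to 1.97), and it was above in 6 of 6 barcode sets, by 1.59-fold to 2.70-fold. In the shallowest bin the 6 sets were at 4894, 4376, 4263, 2999, 3746 and 4794 CPM, and in the deepest at 8123, 7862, 7835, 8083, 8075 and 7610 CPM. The ranges did not overlap, and the sets were closer together in the deep bin.

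Of the 31 constitutive genes, 25 were at least 1.5-fold higher in the deepest bin and none was 1.5-fold lower. Among all 13390 genes, 16.7% were at least 1.5-fold higher and 40.3% at least 1.5-fold lower. The median log2 fold was 0.96 for the constitutive genes and -0.35 for all genes. The alpha ring, which gates the core, had 7 of 7 genes past 1.5-fold, with a median log2 fold of 1.10. Psma5 had the highest fold of any constitutive gene, from 123 to 340 CPM, or 2.78-fold (2.47 to 3.13). The beta ring also had 7 of 7 past 1.5-fold, with a median log2 fold of 0.87 and values from 1.65-fold for Psmb1 to 2.24-fold for Psmb5. Of the ATPases 4 of 6 passed, while Psmc1 stood at 1.28-fold and Psmc4 at 1.30-fold. Of the non-ATPases 7 of 11 passed. Psmd6 at 2.39-fold and Psmd14, which removes the ubiquitin chain, at 2.38-fold led that class, and Psmd11 at 1.32-fold, Psmd2 at 1.43-fold, Psmd4 at 1.35-fold and Psmd3 at 1.20-fold did not reach 1.5-fold. Psmd3 and Psmd4 were the exceptions over the sets as well, with a higher deep bin in 3 and 4 of 6 sets. Each of the other 29 constitutive genes was higher in 6 of 6 sets.

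**Figure D1:**
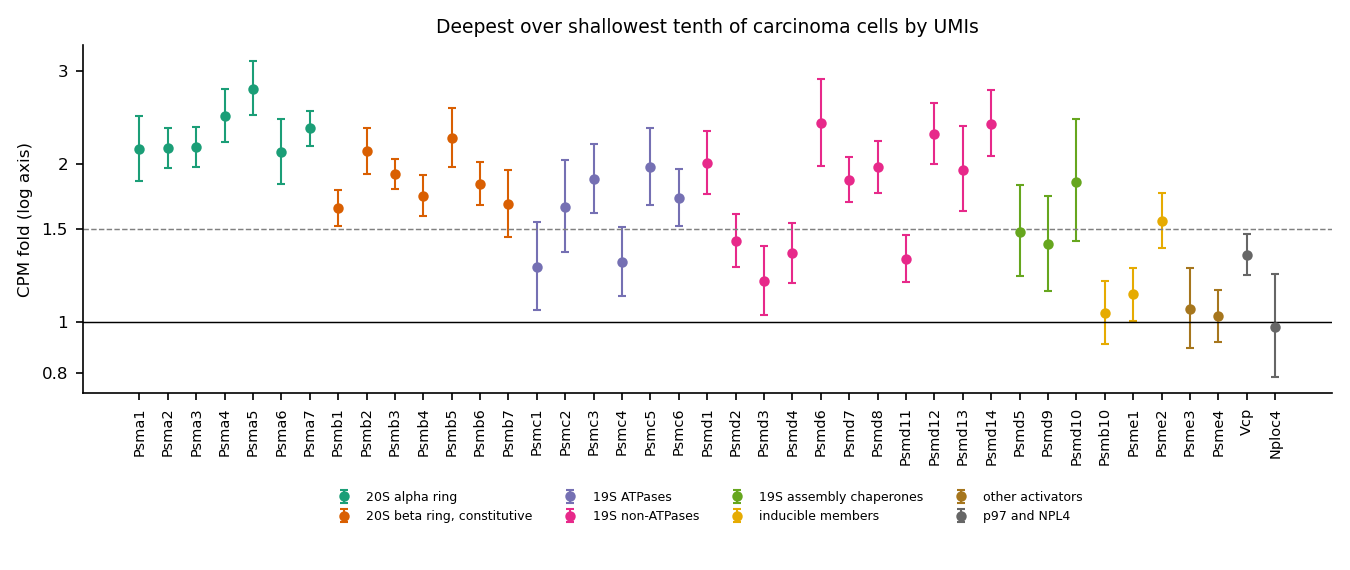
Fold of CPM in the deepest over the shallowest of 10 bins of carcinoma cells by UMIs, on a log axis, for each member with a role in the pathway. Bars are 95% intervals for counting error, colours mark the role and the dashed line is 1.5-fold. All 7 alpha-ring genes lie above the dashed line, while Psmb10, Psme3, Psme4 and Nploc4 lie near 1.

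The inducible members did not share the slope to the same extent. Their sum went from 352 CPM in the shallowest bin to 441 in the deepest, 1.26-fold (1.17 to 1.35), and was higher in 4 of 6 sets. Psmb10 was 1.04-fold higher (0.910 to 1.20) and Psme1 1.13-fold (1.01 to 1.27), whereas Psme2 was 1.56-fold higher (1.39 to 1.76) and above in 6 of 6 sets. The PA28 partners thus differed, with intervals that did not overlap. Outside the immunoproteasome, the nuclear activator gene Psme3 was at 1.06-fold and the PA200 gene Psme4 at 1.03-fold, with intervals that held 1. Vcp went from 210 to 282 CPM, 1.34-fold (1.23 to 1.47), in 6 of 6 sets. Nploc4 stayed between 33.0 and 38.7 CPM over the 10 bins, with a deepest to shallowest ratio of 0.981 (0.787 to 1.24). The adaptor therefore had no slope beyond counting error while its enzyme had a shallow one. The chaperones Psmd5, Psmd9 and Psmd10 were at 1.48-fold, 1.41-fold and 1.85-fold.

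Other genes of the pathway were not uniform. In a list of 20 assembly factors, shuttles and deubiquitinases of the proteasome, 6 were at least 1.5-fold higher in the deepest bin and 3 at least 1.5-fold lower. Uchl5, a deubiquitinase that docks on the 19S regulator, went from 15.6 to 58.8 CPM, and the core assembly factor Pomp from 254 to 436 CPM. Ddi2, the protease that activates the transcription factor of proteasome genes Nfe2l1, went the other way, from 93.4 to 43.4 CPM. Nfe2l1 itself was at 207 CPM in the shallowest bin and 120 CPM in the deepest. Of 27 other p97 cofactors, 4 were 1.5-fold higher and 8 were 1.5-fold lower, with Yod1, a deubiquitinase, at 102 CPM in the shallowest bin and 24.5 CPM in the deepest and Ubxn2b at 14.8 and 4.91 CPM. Among the 7 genes listed for interferon-gamma and MHC class I, none was 1.5-fold higher and 6 were 1.5-fold lower, with the transcription factor Irf1 at 349 CPM in the shallowest bin and 91.0 CPM in the deepest and Nlrc5 at 17.6 and 4.69 CPM.

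Several features of the cells moved with depth. From the shallowest bin to the deepest, the median mitochondrial share went from 5.59% to 2.18%, the share of Malat1, a nuclear RNA, from 3.92% to 0.960%, and that of ribosomal protein genes from 10.6% to 18.3%. The share of cells among the highest by mitotic or S-phase markers went from 4.25% to 52.2%. In cells outside those cycling classes the constitutive sum still went from 4150 to 7798 CPM, and in cells under 5% mitochondrial counts from 4722 to 8015 CPM. With mitochondrial genes, ribosomal protein genes and Malat1 taken out of the total it went from 5182 to 10210 CPM. The parts of cell size, capture and RNA quality in the slope were not tested. Shallow carcinoma cells also had to hold 3 Xist UMIs to be gated at all.

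The same slope appeared inside most host gates that were large enough to bin on a common scale of UMIs. Macrophages went from 4246 CPM at a median of 904 UMIs to 5857 CPM at 9860 UMIs. T cells went from 3545 CPM in their shallowest bin to 5720 CPM in their deepest, NK cells from 2958 to 5433 CPM and fibroblasts from 3248 to 5118 CPM. Osteoclast-like cells showed less of it, with 5898, 6568, 6849 and 6365 CPM in 4 bins. At the same UMIs, macrophages lay above carcinoma cells in every shared bin up to 8192 UMIs, and fibroblasts below them in each of 6 bins. Carcinoma cells between 5793 and 8192 UMIs were at 5362 CPM (5309 to 5415), macrophages of that depth at 5718 CPM (5482 to 5961) and fibroblasts at 3708 CPM (3549 to 3872). In the next bin the macrophage value was the lower, at 5857 against 6073 CPM, with overlapping intervals. The fibroblast interval overlapped that of carcinoma cells below 4096 UMIs in both bins.

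**Figure D2:**
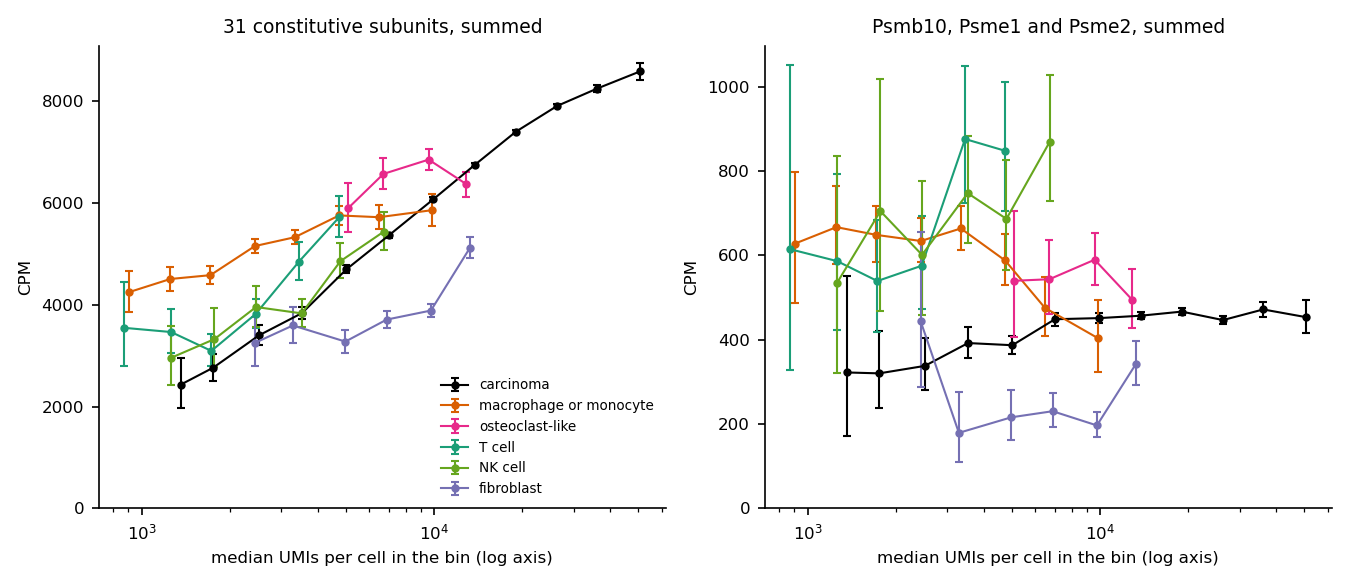
Summed CPM of the 31 constitutive genes (left) and of Psmb10, Psme1 and Psme2 (right) against the median UMIs per cell of each bin, on a log axis, for the carcinoma gate and 5 host gates. Bars are 95% intervals for counting error. On the left the carcinoma line runs from 2430 to 8582 CPM with fibroblasts below it and macrophages above it except in their deepest bin, and on the right the carcinoma line stays between 447 and 472 CPM above 5793 UMIs.

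Against the carcinoma gate as a whole, the constitutive sum was lower in each of the 10 host gates. It was 6676 CPM in osteoclast-like cells, 5370 in macrophages, 5314 in T cells, 5053 in dendritic cells, 4849 in endothelial cells, 4560 in NK cells, 4546 in fibroblasts, 4392 in pericytes, 4080 in neutrophils and 3826 in mast cells, against 6890 CPM. Neighbours in that order overlapped in their intervals from macrophages downward, while carcinoma, osteoclast-like and macrophage values were separate. All 10 comparisons share the carcinoma cells. The order depended on depth: against carcinoma cells of the same UMIs, macrophages were higher (5398 against 4146 CPM), T cells were higher (5351 against 4364 CPM) and osteoclast-like cells were higher (6676 against 6151 CPM). The log2 folds of those 3 gates turned from -0.36, -0.37 and -0.05 to 0.38, 0.29 and 0.12. Cells of the same UMIs were not alike in mitochondrial share. Between 2048 and 2896 UMIs its median was 7.06% in carcinoma cells, 1.20% in macrophages and 3.42% in T cells. Between 8192 and 11585 UMIs it was 2.74% in carcinoma cells and 4.57% in osteoclast-like cells. The part of that difference in the matched values was not tested. The other 7 gates remained below, fibroblasts by the most, at 4500 against 6077 CPM. Scaling by TMM or by DESeq2 size factors raised the median of all genes in macrophages by over 0.1, from -0.49 to -0.08 and -0.02, and with it the log2 fold of the constitutive sum, to 0.05 and 0.11. In osteoclast-like cells those scalings gave 0.16 and 0.20.

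**Figure D3:**
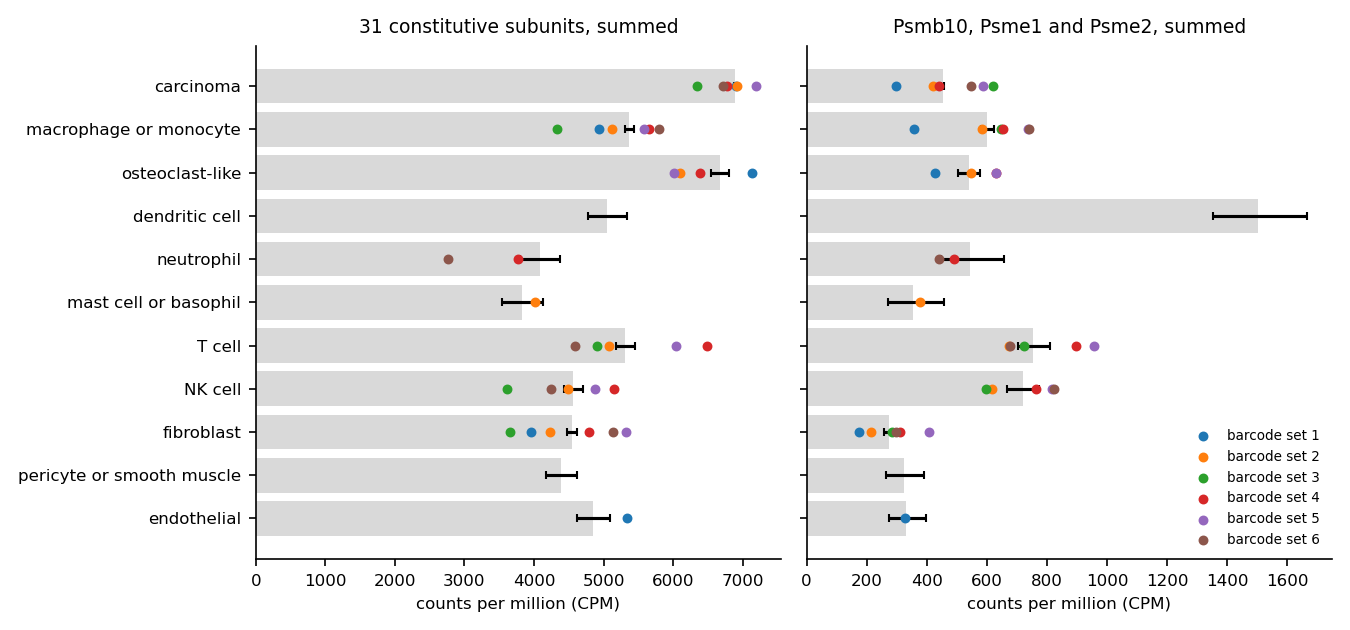
Summed CPM of the constitutive genes (left) and of Psmb10, Psme1 and Psme2 (right) in each gate. Grey bars are pooled cells with 95% counting intervals and points are barcode sets with at least 20 cells of the gate. The left carcinoma bar, at 6890 CPM, is the highest, and the right dendritic cell bar reaches 1503 CPM.

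Counts of single genes followed the same division. At least 1.5-fold below the whole carcinoma gate were 8 of the 31 constitutive genes in macrophages, 11 in T cells, 17 in NK cells, 14 in fibroblasts and 1 in osteoclast-like cells. The shares of all genes that low were 46.8%, 33.9%, 35.6%, 27.5% and 37.3% in those gates. The constitutive count was thus below the background share in macrophages and osteoclast-like cells, near it in T cells, and above it in NK cells and fibroblasts. In the smallest gates the counts were 10 of 31 in dendritic cells (background 27.7%), 21 in neutrophils (32.1%), 24 in mast cells (30.2%), 15 in pericytes (21.5%) and 11 in endothelial cells (21.9%). At least 1.5-fold higher were Psmb5 in osteoclast-like cells (25.4% of all genes) and Psmc4 in endothelial cells (42.9%). No constitutive gene was that much higher in the other 8 gates, where the background ran from 18.0% in fibroblasts and 20.3% in macrophages through 28.3% in NK cells, 30.5% in T cells, 39.1% in dendritic cells and 39.5% in pericytes to 42.1% in neutrophils and 42.9% in mast cells. In these shares a gene with no UMI in a gate was given 3 UMIs, so undetected genes can count as higher in small gates.

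Against carcinoma cells of the same UMIs, 10 constitutive genes were at least 1.5-fold higher in macrophages and 1 was lower, where 18.7% and 49.2% of all genes were. In T cells 5 were higher and 1 lower, with 27.9% and 38.6% of all genes. In NK cells 1 was higher and 4 lower, beside 25.5% and 39.4%. In fibroblasts none was higher and 6 were lower, beside 15.8% and 27.4%. There 31 of 31 lay below carcinoma, with a median log2 fold of -0.44, and the median of all genes was also below, at -0.23. Osteoclast-like cells had 4 higher and none lower, beside 24.7% and 37.8%. The smallest gates again had more genes lower than higher. Dendritic cells had 1 higher and 5 lower (36.3% and 29.7% of all genes), neutrophils 1 and 3 (38.1% and 34.0%), mast cells 4 and 10 (40.7% and 33.2%), pericytes none and 9 (35.9% and 22.7%) and endothelial cells 1 and 4 (39.5% and 22.3%).

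Alpha-ring genes were the larger part of those past 1.5-fold in macrophages at matched UMIs. Of the 10 macrophage genes past 1.5-fold, 6 were alpha-ring genes, namely Psma1, Psma2, Psma4, Psma5, Psma6 and Psma7, and 4 were the non-ATPases Psmd6, Psmd8, Psmd13 and Psmd14. Psma1 was at 211 CPM in those macrophages and 91.8 CPM in carcinoma cells of the same depth. Even against all carcinoma cells, at 158 CPM, Psma1 was higher in macrophages, osteoclast-like, dendritic, T and NK cells, at 210, 234, 210, 192 and 191 CPM. Its carcinoma sets lay between 153 and 166 CPM. Fibroblasts were the contrast, at 94.2 CPM, with sets from 63.5 to 144 CPM that lay below each carcinoma set.

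Psmd7, the structural partner of the deubiquitinase Psmd14, was lower in the host gates by a wide margin and is named here after its values were seen. It was at 261, 263, 226, 263, 305 and 241 CPM in the 6 carcinoma sets. In the 6 macrophage sets it was at 97.9, 77.7, 52.8, 113, 115 and 106 CPM, so the 2 groups of sets did not overlap. In the 5 T-cell sets it ran from 51.3 to 138 CPM and in the 5 NK-cell sets from 38.1 to 86.4 CPM. Psmd7 was lower than in carcinoma in 10 of 10 host gates, with log2 folds from -0.44 in osteoclast-like cells to -2.74 in neutrophils, and also at matched UMIs, from -0.24 to -2.13. Psmd14 at matched UMIs was instead higher in macrophages, at 130 against 84.3 CPM. The chaperone Psmd5 likewise was below carcinoma in 10 of 10 gates with and without matching. Among the other 19S genes, Psmd12 was lower in fibroblasts, with a log2 fold of -1.16 (-0.88 at matched UMIs), as was the ATPase Psmc5, at -1.10 (-0.91). In NK cells the ATPase Psmc1 was at -1.34 (-1.15 matched).

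Osteoclast-like cells were nearest to carcinoma in sum and differed in single genes. Psmb5, the chymotrypsin-like active site and the target of the drug bortezomib, was at 357, 241, 337 and 287 CPM in the 4 sets with 20 or more such cells. The 6 carcinoma sets were at 216, 203, 185, 202, 214 and 220 CPM. Every osteoclast-like set was above every carcinoma set, and the pooled log2 fold was 0.67, or 0.82 at matched UMIs. Psmb6, the caspase-like site, was at 299, 291, 273, 324, 312 and 321 CPM in the carcinoma sets and 230 to 325 CPM in the osteoclast-like sets, which overlapped. Psmb7, the trypsin-like site, was at 114, 122, 103, 118, 124 and 127 CPM in the carcinoma sets. Its osteoclast-like sets ran from 142 to 179 CPM and lay above them. Psmd10, an assembly chaperone also known as gankyrin, was at 116, 137, 94.8 and 103 CPM in those sets and between 39.6 and 49.3 CPM in the carcinoma sets. Its log2 fold was 1.32, and 1.38 at matched UMIs.

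**Figure D4:**
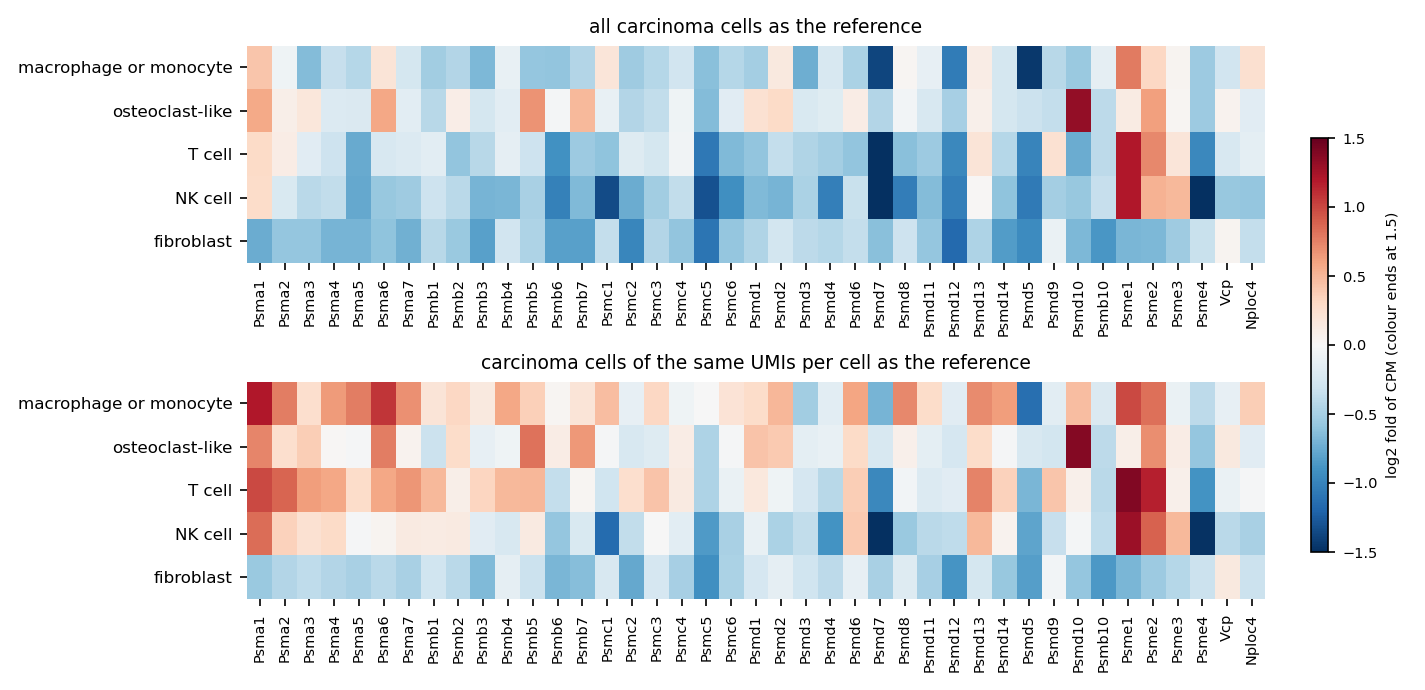
Log2 fold of CPM of each member in the 5 largest host gates over all carcinoma cells (top) and over carcinoma cells of the same UMIs (bottom), with colours that end at 1.5 in either direction. Matching turns most of the macrophage and T cell rows from blue to red, while Psmd7 and Psmd5 stay blue in all 5 gates and fibroblasts stay blue for all 31 constitutive genes.

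The inducible members followed another order. Psmb10, Psme1 and Psme2 lie apart from the constitutive genes in their known control by interferon, so the start regions of these 3 genes are printed. They come from RefSeq on GRCm38.p6 and hold 250 bases before and 50 after the start that RefSeq gives, read 5′ to 3′ on the strand of the gene. The sequence of Psmb10 is chr8:105938343-105938642 on the minus strand, that of Psme1 chr14:55578244-55578543 on the plus strand and that of Psme2 chr14:55591052-55591351 on the minus strand. Capitals mark the interferon response element word (GAAA, any 2 bases, GAAA) or the STAT word TTCNNNGAA, searched on both strands. The antioxidant response element word TGACNNNGC, the word CCAAT and a heat shock element word (GAA, TTC and GAA, with any 2 bases between neighbours) were searched as well, so 5 words in all.
Psmb10: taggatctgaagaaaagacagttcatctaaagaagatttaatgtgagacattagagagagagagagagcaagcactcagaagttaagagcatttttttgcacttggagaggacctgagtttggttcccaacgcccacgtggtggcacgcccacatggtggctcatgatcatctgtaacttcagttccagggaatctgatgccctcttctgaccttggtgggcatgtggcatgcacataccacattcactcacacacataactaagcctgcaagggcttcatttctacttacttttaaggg
Psme1: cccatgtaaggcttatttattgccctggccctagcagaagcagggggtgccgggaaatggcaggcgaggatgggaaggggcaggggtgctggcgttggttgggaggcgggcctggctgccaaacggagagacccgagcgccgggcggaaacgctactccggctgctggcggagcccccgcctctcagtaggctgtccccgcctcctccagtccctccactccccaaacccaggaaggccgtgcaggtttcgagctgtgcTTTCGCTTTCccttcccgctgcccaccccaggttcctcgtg
Psme2: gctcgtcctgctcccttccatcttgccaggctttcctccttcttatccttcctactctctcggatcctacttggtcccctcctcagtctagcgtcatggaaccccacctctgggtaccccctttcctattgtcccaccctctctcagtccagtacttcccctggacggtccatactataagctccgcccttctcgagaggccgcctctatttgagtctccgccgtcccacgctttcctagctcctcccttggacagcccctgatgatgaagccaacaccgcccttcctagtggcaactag
The interferon word was found in Psme1 alone, beginning 10 bases after the start, and the STAT word in none of the 3. The GENCODE annotation begins Psme1 at chr14:55578123, before the whole printed region, so this result depends on the RefSeq start. Bases before the GENCODE start were not searched. The interferon word was in 3.44% of 32851 RefSeq start regions of that length and in 2 of the 25 constitutive genes with an entry, Psmb3 and Psmd4. The STAT word was in 8.3% of all regions and in 1 of the 25, Psmd2. Of the 43 members 37 had an entry. A second RefSeq start of Psme2 held neither word. The antioxidant word was in 4 of the 25 (12.4% of all regions), among them Psmb5 and Psmb6, the CCAAT word in 10 of the 25 (37.4% of all regions) and the heat shock word in none. None of the 3 inducible genes held any of these last 3 words. A match is a description of these letters only.

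Summed over Psmb10, Psme1 and Psme2, the pooled level was 453 CPM in carcinoma cells and was higher in 6 of 10 host gates. Dendritic cells were highest at 1503 CPM (1353 to 1666), followed by T cells at 755, NK cells at 719, macrophages at 602, neutrophils at 546 and osteoclast-like cells at 540 CPM. With cells of at least 200 genes and under 25% mitochondrial counts kept, the neutrophil log2 fold of 0.27 turned to -0.32. Endothelial cells at 332, pericytes at 324 and fibroblasts at 274 CPM were lower. Mast cells were also lower at 356 CPM, by -0.35 on the log2 scale, but level with carcinoma at 0.01 after DESeq2 scaling. At matched UMIs the same 6 gates were higher and the same 4 lower, with log2 folds of 1.87 in dendritic cells, 0.97 in T cells and 0.67 in macrophages against -0.67 in fibroblasts. Within macrophages the inducible sum was lower in deeper cells, from 628 to 667 CPM in the 5 bins below 4096 UMIs to 588, 476 and 403 CPM in the next 3. In the deepest, of 23 cells, it was under the 451 CPM of carcinoma cells of that depth, with overlapping intervals. T and NK cells did not show that decline. From their shallowest to their deepest bin they went from 614 to 848 CPM and from 535 to 869 CPM, also with overlapping intervals. In pooled cells the 4 lower gates were thus mast cells and the fibroblast, pericyte and endothelial gates. The gates draw on the barcode sets unequally, and carcinoma sets ran from 297 to 621 CPM. The part of set composition in the pooled values was not tested. Within sets of at least 20 cells, neutrophils were higher in 1 and lower in 1. NK cells were lower in set 3, at 597 against 621 CPM. Endothelial cells were higher in their only such set, at 327 against 297 CPM. The fold intervals of neutrophils (0.989 to 1.45) and mast cells (0.601 to 1.01) held 1. Some of the gates also held markers listed for other cell types. The dendritic cell gate had 8 of 8 of its own markers at 3677 CPM in sum, and 9 of 12 epithelial keratin markers at 733 CPM, against 1148 CPM in carcinoma cells and 32.0 to 234 CPM in the other host gates. The neutrophil gate had 38436 CPM of its own 7 markers, with 11 of 11 macrophage markers at 2533 CPM and 7 of 8 fibroblast markers at 1792 CPM. Mast cells held 2 of 7 neutrophil markers at 1534 CPM, osteoclast-like cells 11 of 11 macrophage markers at 1157 CPM and pericytes 7 of 8 fibroblast markers at 8680 CPM. Whether those counts came from other cells or from the gated cells was not tested, nor was their part in the values of these gates.

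Psme1 and Psme2, which form PA28, made up that order. Psme1 was at 106, 144, 233, 160, 198 and 198 CPM in the carcinoma sets. It was at 269 to 497 CPM in the 5 T-cell sets and 299.7 to 494 CPM in the 5 NK-cell sets, above every carcinoma set, and at 160 to 391 CPM in the 6 macrophage sets, which overlapped carcinoma. Dendritic cells had 614 CPM (519 to 720) from 149 UMIs. Fibroblast sets were at 64.8 to 140 CPM. Psme2 was at 135, 185, 241, 183, 225 and 215 CPM in the carcinoma sets. T-cell sets were at 249 to 352 CPM, macrophage sets at 146 to 304 CPM and dendritic cells at 766 CPM (660 to 884), while fibroblast sets were at 74.4 to 157 CPM. Of the 3 members, 2 were at least 1.5-fold higher in T cells (30.5% of all genes) and in dendritic cells (39.1%). Psme1 alone was in macrophages (20.3%), NK cells (28.3%) and neutrophils (42.1%), at 273, 368 and 260 CPM against 160 CPM. Psme2 alone was in osteoclast-like cells (25.4%), at 286 against 187 CPM. These are counts among 3 genes, and the shares of all genes can include genes undetected in a gate.

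Psmb10, the inducible form of Psmb7, did not follow PA28. It was at 55.7, 91.4, 147, 98.0, 165 and 135 CPM in the carcinoma sets and pooled to 107 CPM. Pooled macrophages were at 97.1 CPM, NK cells at 83.6, T cells at 81.4, osteoclast-like cells at 81.5 and fibroblasts at 58.4 CPM. Only dendritic cells were above carcinoma, at 124 CPM, with an interval from 83.4 to 176 that held the carcinoma value. In macrophages the log2 fold of -0.13 became 0.28 and 0.34 with TMM and DESeq2 scaling. The 2 other inducible sites, which are not members, differed from it: Psmb8 was at 107 CPM in carcinoma against 301 in T cells, 285 in NK cells and 474 in dendritic cells, and Psmb9 at 42.0 against 211, 194 and 305 CPM.

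Set against the subunit each replaces, Psmb10 gave a different picture from Psmb8 and Psmb9 in T and NK cells. The ratio of Psmb10 to Psmb7 counts was 0.896 in carcinoma cells (0.872 to 0.920), 1.11 in macrophages (0.963 to 1.27), 1.00 in T cells (0.730 to 1.37) and 1.11 in NK cells (0.797 to 1.56). It was below carcinoma in osteoclast-like cells, at 0.489 (0.395 to 0.603). The ratio was above carcinoma in 5 of 10 gates, and in 2 at matched UMIs. The ratio of Psmb9 to Psmb6 was 0.136 in carcinoma cells, 0.157 in fibroblasts, 0.726 in macrophages, 1.27 in NK cells and 1.28 in T cells. The ratio of Psmb8 to Psmb5 was 0.513 in carcinoma cells, 0.431 in fibroblasts, 1.22 in macrophages, 1.79 in T cells and 1.91 in NK cells. The Psmb8 and Psmb9 ratios were thus higher in T and NK cells than in carcinoma cells, while the Psmb10 interval held the carcinoma value in both. These are ratios of 3′ counts of different genes, not of molecules per length.

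Among carcinoma cells the barcode sets differed more in the inducible genes than in the constitutive ones. The highest set was 2.96-fold above the lowest for Psmb10, 2.20-fold for Psme1 and 1.78-fold for Psme2, against 1.13-fold for the constitutive sum. For Psmb8 and Psmb9 it was 4.44-fold and 7.93-fold. Set 1 was lowest for all 5 genes, and set 1 was also lowest for Psmb10 in macrophages, at 49.4 CPM, and in fibroblasts, at 28.1 CPM. Summed interferon-response markers were at 356, 433, 535, 812, 1873 and 1148 CPM in sets 1 to 6. Set 3 had the highest Psme1, Psme2, Psmb8 and Psmb9 while its marker sum was the third lowest of 6. Set 3 also held the fewest carcinoma cells, 321 of 7267. What the sets stand for is not given, so no condition is attached to these differences.

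Carcinoma cells with the highest interferon scores had higher inducible members and a constitutive sum close to that of the other cells. The state was the highest 10% of carcinoma cells in each set by 10 interferon-response markers, none of them a proteasome gene, 727 cells against 6540. It is a range of a score, not a cell type, and 100 cells lay within 0.1 SD of its edge. Psmb10 was at 151, 219, 202, 231, 295 and 251 CPM in the high cells of the 6 sets and at 45.3, 77.9, 141, 85.6, 150.5 and 123 CPM in the others. It was higher in 6 of 6 sets, by a pooled 2.39-fold (2.27 to 2.51). Psme1 and Psme2 were each 1.53-fold higher, in 6 of 6 sets, with Psme1 at 232 against 152 CPM and Psme2 at 272 against 178 CPM. All 3 inducible members passed 1.5-fold, where 6.86% of all genes did. At matched UMIs the log2 fold of their sum was 0.79, against 0.78 without matching. In set 3 the step was smallest, from 141 to 202 CPM for Psmb10 and from 241 to 248 CPM for Psme2.

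No constitutive gene reached 1.5-fold in either direction in that state, where 4.92% of all genes were 1.5-fold lower. Their sum had a log2 fold of -0.04 by CPM and 0.01 after TMM or DESeq2 scaling, so its direction depended on the scaling. The ratio of Psmb10 to Psmb7 was 2.00 in the high cells (1.85 to 2.16) and 0.789 in the others. Psmb7 was at 113 CPM against 120 CPM, so the ratio moved with Psmb10. Psmb8 and Psmb9, outside the rule, were 2.22-fold and 2.53-fold higher, again in 6 of 6 sets. Vcp was lower, at 0.857-fold (0.818 to 0.897) and in 6 of 6 sets, as was Psme4, at 0.820-fold. Nploc4 was at 0.936-fold, with an interval that held 1.

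**Figure D5:**
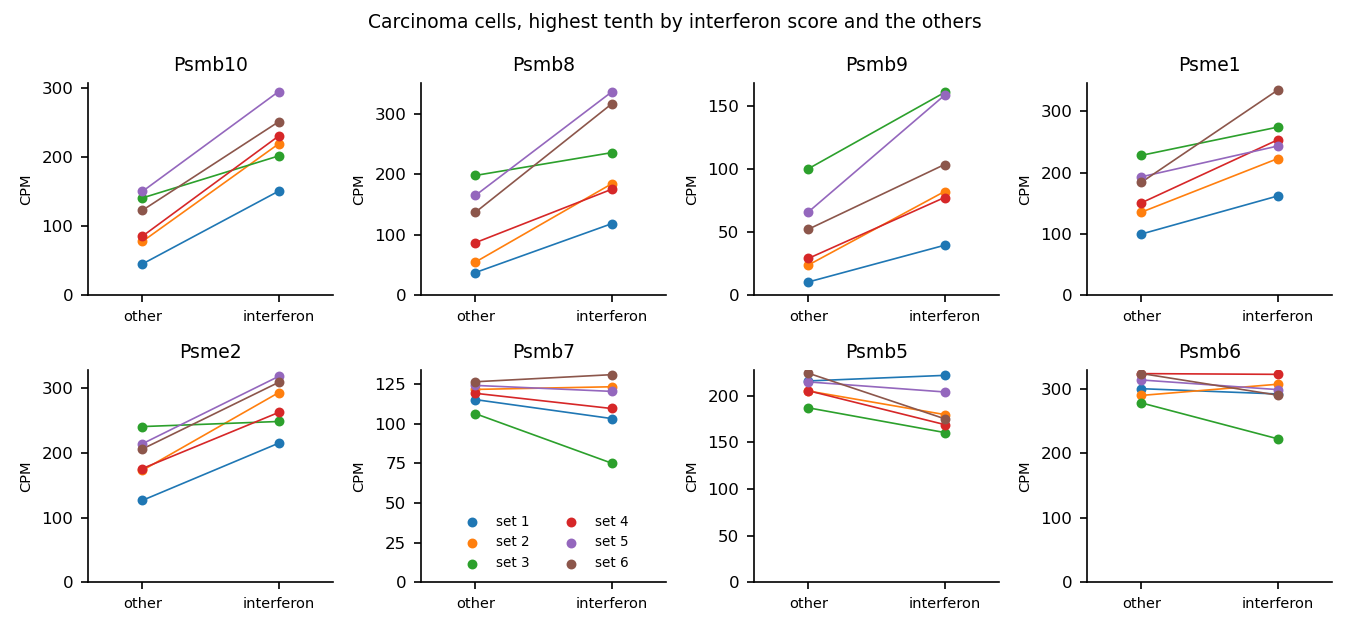
CPM of the inducible genes and the subunits they replace in carcinoma cells outside (other) and inside (interferon) the highest 10% by interferon score. Each line joins the 2 values of 1 barcode set. Lines for Psmb10, Psmb8, Psmb9, Psme1 and Psme2 go up in all 6 sets, whereas those for Psmb5, Psmb6 and Psmb7 are level or mixed.

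In 8 further carcinoma states, cut in the same way, the constitutive sum differed by less than the depth gradient. It was highest relative to the other carcinoma cells in the S-phase and mitotic states, at 1.17-fold and 1.14-fold and in 6 of 6 sets. Those cells were also deeper, with medians of 17807 and 19294 UMIs against 10896.5 and 10863, and at matched UMIs the log2 folds went from 0.23 to 0.11 and from 0.19 to 0.04. In S phase 31 of 31 constitutive genes were above the other cells, and 28 at matched UMIs. The sum was lowest in the matrix state, cells high in fibroblast-like matrix genes, at 0.784-fold and lower in 5 of 6 sets. In set 3 it was the higher, at 6471 CPM against 6323 CPM. Matrix cells were shallower, with a median of 8209 UMIs against 11844.5. At matched UMIs 31 of 31 genes were below, with a log2 fold of -0.21 for the sum. For counts of genes above or below without a fold, in this and the other states, no share of all genes is given. Psma7 in that state, at a log2 fold of -0.64, was the only constitutive gene past 1.5-fold in any state, and at matched UMIs, at -0.46, it no longer was. In the matrix state 12.1% of all genes were at least 1.5-fold lower and 17.3% as much higher. In the other states the shares of all genes at least 1.5-fold higher and lower were 8.86% and 11.6% (epithelial keratin), 6.54% and 10.2% (Tslp and Tac1), 9.05% and 7.53% (Smoc2 and Abcg2), 10.0% and 11.2% (hypoxic), 7.74% and 16.3% (mitotic), 10.2% and 16.3% (S phase) and 10.0% and 3.5% (heat shock).

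The hypoxic and heat shock states were below the other cells as well. Their constitutive log2 folds were -0.25 and -0.18, or -0.21 and -0.08 at matched UMIs, where 28 of 31 genes stayed below in each. Heat shock cells had a median of 7740 UMIs against 11782.5. The heat shock sum was lower in 5 of 6 sets and higher in set 3, at 6546 against 6317 CPM. In pooled cells the share of proteasome transcripts was thus not higher where heat shock transcripts were. The state of cells with Smoc2 and Abcg2 had lower inducible catalytic genes, with log2 folds of -0.64 for Psmb10, -0.93 for Psmb8 and -1.23 for Psmb9, each lower in 6 of 6 sets, where 7.53% of all genes were at least 1.5-fold lower. The Tslp and Tac1 state had an inducible sum of -0.31 and a constitutive sum of -0.14, and the epithelial keratin state had 0.14 and 0.10.

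Vcp, an abundant ATPase in most cells, was at 255, 273, 260.0, 265, 249 and 248 CPM in the carcinoma sets and pooled to 259 CPM. Endothelial cells were highest, at 402 CPM (337 to 475) from 138 UMIs, and their interval stood apart from the next gate. Osteoclast-like cells at 269, fibroblasts at 267 and pericytes at 255 CPM had intervals that held the carcinoma value. T cells at 219, dendritic cells at 218, macrophages at 213, mast cells at 210, NK cells at 175 and neutrophils at 140 CPM were lower, and each overlapped its neighbours. The intervals of dendritic cells (163 to 285) and mast cells (147 to 291) also held the carcinoma value. Macrophage sets ran from 172 to 255 CPM and reached into the carcinoma range, and the pooled macrophage log2 fold of -0.28 became 0.13 and 0.19 with TMM and DESeq2 scaling. The mast cell log2 fold of -0.30 likewise became 0.02 and 0.05. At matched UMIs the macrophage and T-cell values were close to carcinoma, with log2 folds of -0.12 and -0.10, while endothelial cells kept 0.75. Vcp was below carcinoma in 7 of 10 gates, and pericytes, 1 of the 7, were above at matched UMIs, at 0.11. In carcinoma states it stayed between 0.857-fold in the interferon state and 1.08-fold in S phase.

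Nploc4 was counted far less often than Vcp, and its values carry wider errors. The carcinoma sets were at 38.4, 35.6, 30.5, 37.2, 33.9 and 38.9 CPM. Macrophages were highest, at 42.9 CPM (37.1 to 49.4), with sets from 34.0 to 50.4 CPM that overlapped carcinoma. T cells were at 33.0, osteoclast-like cells at 32.2 and fibroblasts at 28.4 CPM (22.7 to 35.0). The remaining gates rest on 3 to 23 UMIs, from dendritic cells at 24.7 CPM and NK cells at 24.3 CPM to endothelial cells at 14.6 CPM (4.73 to 34.0). Each gate overlapped its neighbour in the order, and Nploc4 was below carcinoma in 9 of 10 gates, of which osteoclast-like cells turned to 0.03 and 0.07 on the log2 scale with TMM and DESeq2 scaling and T cells to 0.00 with the latter. Endothelial cells, highest for Vcp, were lowest for Nploc4, though only 5 UMIs stand behind that value. In carcinoma states Nploc4 ran from 0.855-fold in heat shock to 1.13-fold in the matrix state. Its start region, on GRCm38.p6 at chr11:120437651-120437950 on the minus strand, is printed because it was the only start region among the members with the heat shock element word, in capitals, a word held by 0.603% of all RefSeq start regions.
Nploc4: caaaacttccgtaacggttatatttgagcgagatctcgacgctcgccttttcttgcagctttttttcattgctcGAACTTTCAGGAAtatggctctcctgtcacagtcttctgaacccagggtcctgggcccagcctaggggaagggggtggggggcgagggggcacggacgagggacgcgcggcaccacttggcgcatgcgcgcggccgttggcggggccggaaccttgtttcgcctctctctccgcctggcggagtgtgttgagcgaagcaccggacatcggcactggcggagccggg
The word begins 176 bases before the start. Nploc4 in the heat shock state was not higher than in other carcinoma cells, with a fold interval from 0.744 to 0.980.

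The remaining names had patterns of their own. Psme4 was at 146 CPM in carcinoma, 116 in fibroblasts, 100.4 in macrophages, 74.6 in T cells and 50.8 in NK cells, and stayed lower in T and NK cells at matched UMIs, with log2 folds of -0.89 and -1.49. Psme3 was between 41.4 CPM in fibroblasts and 83.6 CPM in NK cells. Psmc3ip, which is no proteasome gene, was at 56.8 CPM in S-phase carcinoma cells and 11.9 CPM in the others, 4.79-fold higher, and 1.92 on the log2 scale at matched UMIs. It is shown to keep it out of the 19S counts, where its symbol would place it. Psme2b had 80 UMIs in carcinoma cells and 28 in macrophages, too few for a comparison. Of the members, 17 overlap another gene of the matrix in the annotation, among them Psmb10, Psme1 and Vcp, and counting by strand is not given in the sources used here.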

How the data were processed

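The deposited file is a matrix of UMI counts per gene and cell. Per the submitters' processing notes it was made with Cell Ranger 7.1 on mm10, the matrix header names version 7.0.0, and the series text names Seurat 4.1.0. Intron and strand settings are not given in the sources used here. The matrix holds 14818 cells, and each barcode set has at least 7354560 UMIs. No barcode was shared between sets. No cell can be assigned to a labelled tumor, so groups were pooled cells, and no model, test or p-value was used.

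Members, gene lists, marker panels and thresholds were chosen with earlier results of these data known. Every member is named. Otherwise the text names members past 1.5-fold or up to 3 with the largest log2 fold, and of other lists the 2 with the largest log2 fold. Psmd7 across gates, Psmd14, Psmd5, Pomp, Nfe2l1 and the Nploc4 start region were named after their values were seen. CPM, exact 95% Poisson intervals and conditional binomial intervals of ratios were computed in Python 3.11.15 (scipy 1.17.1). For calls past 1.5-fold in gates and states, a gene with no UMI in a group was given 3 UMIs. Such a gene can be called higher in a small gate without having been detected there. Alternative scalings used TMM from edgeR 4.0.16 and size factors from DESeq2 1.42.0. For matched values, carcinoma cells were weighted to the UMI bins of the compared gate, an alternative added after the data were seen, which covered at least 96.8% of the gate's UMIs. Cells with conflicting host panels, or with a host panel and more than 1 Xist UMI, were left out as possible doublets. Scrublet scores of 0.25 or more marked 284 kept cells, 95 of them in a gate, and these stayed in except in 1 alternative. On simulated counts of 13390 genes for the T cell gate against carcinoma, estimated over true folds had medians of 1.02, 1.01, 1.00 and 0.989 at true folds of 0.25, 0.5, 2 and 4. On cells simulated with a depth slope and no gate difference, the median fold was 0.519 unmatched and 0.992 matched. Both simulated gates had the same share at a given number of UMIs, so a matched fold near 1 was set in advance. This checks the calculation only, and cannot show whether real cells of the same UMIs are otherwise alike.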

Additional observations from a re-analysis of the deposited data

How the results depend on the processing

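No paired analysis was possible because the deposited cells carry no tumor or replicate label. No value has a replicate, so agreement across alternatives is not evidence about tumors. Low counts limit the dendritic, neutrophil, mast cell, pericyte and endothelial gates, where single genes rest on few UMIs. Gates rest on markers, and 605 cells sat exactly at the marker minimum.

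Of 23 alternatives, matching on UMIs, a wider carcinoma gate and leaving out cycling states were chosen after seeing the data. The 132 pairs of a constitutive gene and a host gate at least 1.5-fold lower became 43 with matching, 80 with DESeq2 size factors, 218 at the lower fold tried and 44 at a fold of 2. The 8 inducible pairs higher in host gates became 4 at a fold of 2. The 3 inducible pairs higher in carcinoma states became 1 at a fold of 2 and 1 with the top 20% of cells as the state. Shares of all genes are given above for the main calls, and for host gates with matching, but not for the other alternatives. A change of scaling or fold moves those shares as well, so these pair counts are not a result about the members alone. The inducible sum was higher in 2 of 9 states, and in 4 with TMM or DESeq2 scaling. The ratio of Psmb10 to Psmb7 was above carcinoma in 5 gates, in 3 with cells thinned to 2000 UMIs and in 2 with matching. With cells filtered at 200 genes and 25% mitochondrial counts, the neutrophil inducible sum was below carcinoma.

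Among pairs at least 1.5-fold lower without it, matching turned the log2 fold positive for Psma3 (0.25), Psmb3 (0.14), Psmb5 (0.36) and Psmb6 (0.029) in macrophages, for Psma2 (0.062), Psma5 (0.28) and Psma7 (0.11) in neutrophils, for Psma5 (0.27), Psmb2 (0.089), Psmd1 (0.15), Psmd6 (0.37) and Psmd10 (0.076) in T cells, for Psmd14 (0.058) in NK cells and for Psmc3ip (0.0037) in pericytes. In mast cells it did so for Psma3 (0.14), Psma4 (0.37), Psma5 (0.52), Psmb4 (0.011), Psmb5 (0.37), Psmd6 (0.52), Psmd8 (0.15), Psmd10 (0.27) and Psmc3ip (1.23). Among the same pairs thinning did so for Psmd8 in dendritic cells (0.028), Psmd9 (0.063) and Nploc4 (0.59) in neutrophils, Psmb7 in mast cells (0.18) and pericytes (0.14) and Psmd14 in endothelial cells (0.041). Leaving out 1 barcode set at a time, Psme2b in the heat shock state ran from -0.18 without set 5 to 0.85 without set 1, with 0.64 from all sets. The matched values weight the same cells by depth, and the cause of the other changes was not tested.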
